A study of Mus musculus with 7 samples.

Results

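The 10 disease-associated microglia genes described here are *Trem2*, *Tyrobp*, *Cst7*, *Lpl*, *Itgax*, *Clec7a*, *Spp1*, *Cd68*, *Axl* and *Lgals3*. They are members of the program that microglia switch on near damaged or dying neurons, listed by name, and the list was drawn up with earlier results of these retinas known. All 10 were found among the 52550 genes of the count table and passed the filter on low counts, which kept 20128 genes. In the retina of SCA7 mice, 7 of the 10 were upregulated, while *Lpl*, *Spp1* and *Lgals3* did not pass the test. The 7 include *Cst7* (19.3-fold) and *Itgax* (7.48-fold), which had under 10 reads in every WT library and passed the filter only through the SCA7 libraries, so that they could hardly be tested without differing. Of the other 8 genes 5 were upregulated, from *Axl* (1.86-fold) to *Clec7a* (3.31-fold).

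RNA was measured in the retina of WT mice and of SCA7 140Q/140Q knock-in mice, all of the C57BL/6J strain and 12.5 weeks of age. SCA7, spinocerebellar ataxia type 7, is an inherited disease of retina and cerebellum caused by an expanded glutamine repeat in ataxin-7, a subunit of the SAGA chromatin complex. The homozygous knock-in mice carry 140 glutamines in ataxin-7, made from the gene's own promoter in every cell that uses it, microglia included, and no transgene or Cre is involved. Total RNA depleted of ribosomal RNA was sequenced in 4 WT and 3 SCA7 libraries, each from the retinas of a different mouse. Whole retina was used without sorting, so microglia are a small part of each sample.

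Microglia are the resident macrophages of retina and brain, and at rest they express a set of homeostatic genes such as *P2ry12*, *Tmem119* and *Cx3cr1*. Near injury they lower this set and raise genes for lipid uptake, lysosomal digestion and cell adhesion. The receptor TREM2 senses lipids and cell debris and signals through the adaptor DAP12, the product of *Tyrobp*, and the full program is known to need TREM2. In the retina such cells gather where photoreceptors degenerate.

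The 7 libraries held between 56497675 and 96635832 counts on genes. In CPM after TMM scaling of the library sizes, the unit of all levels below unless another is named, a single count was worth between 0.00972 and 0.0187. A gene was called upregulated at an adjusted p under 0.05 in the quasi-likelihood test of edgeR and a fold change (FC, SCA7 over WT) above 1.3, and downregulated at the same p and an FC under 0.7, with Benjamini-Hochberg adjustment over all 20128 genes. By this rule 7.47% of all genes tested were upregulated and 7.91% downregulated, against 7 and 0 of the 10 microglia genes. All 3 SCA7 libraries lay above all 4 WT libraries for the same 7 genes, and for 19.3% of all genes tested. The median log2 fold change was 1.35 over the 10 genes, 1.10 over the 8 without *Cst7* and *Itgax*, and -0.02 over all genes tested. Setting the libraries by their total counts instead of TMM moved the median of all genes by 0.19 on the log2 scale and turned 1504 up and 1592 down calls into 3681 and 978, so the share of calls that were up went from 48.6% to 79.0%. With that scaling 8 of the 10 genes were upregulated, *Lgals3* being added.

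Promoter sequences were available for 8 of the 10 genes, *Tyrobp* and *Lpl* not being matched. They span 250 bases before to 50 bases after each RefSeq transcription start on GRCm38.p6, and *Clec7a* and *Spp1* have a pair of starts each, giving 10 promoters. Each was searched on both strands for TGANTCA, read by AP-1 factors, for GAGGAAGT, a form of the motif of the myeloid factor PU.1, for its shorter core GAGGAA, which every GAGGAAGT contains, and for CACGTG, the E-box read by the MITF and TFEB family. TGANTCA was present in 4 of the 10 promoters, of 4 genes, and in 7.81% of all 32851 promoters of the table. Of the 8 genes 6 were upregulated, and of these *Clec7a* and *Axl* had no match, so a match did not go with every upregulated gene. The 4 promoters with a match are shown, as examples of where it lies, in the gene's direction, with matches to TGANTCA and to the PU.1 core (on either strand) in capitals. *Trem2* is from chr17:48346151-48346450 (plus strand), *Cst7* from chr2:150570165-150570464 (plus), *Itgax* from chr7:128129300-128129599 (plus) and *Cd68* from chr11:69666121-69666420 (minus).
Trem2: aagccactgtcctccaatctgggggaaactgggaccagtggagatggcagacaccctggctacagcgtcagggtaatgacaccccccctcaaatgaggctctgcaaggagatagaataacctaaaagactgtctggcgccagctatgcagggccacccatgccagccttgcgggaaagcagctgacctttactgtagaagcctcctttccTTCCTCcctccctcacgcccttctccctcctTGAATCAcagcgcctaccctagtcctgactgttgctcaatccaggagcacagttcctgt
Cst7: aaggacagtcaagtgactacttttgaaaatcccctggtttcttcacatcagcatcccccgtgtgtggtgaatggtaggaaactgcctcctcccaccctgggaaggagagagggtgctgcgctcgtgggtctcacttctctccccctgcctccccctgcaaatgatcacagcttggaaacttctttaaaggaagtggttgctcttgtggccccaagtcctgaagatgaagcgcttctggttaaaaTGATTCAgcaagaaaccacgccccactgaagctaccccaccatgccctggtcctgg
Itgax: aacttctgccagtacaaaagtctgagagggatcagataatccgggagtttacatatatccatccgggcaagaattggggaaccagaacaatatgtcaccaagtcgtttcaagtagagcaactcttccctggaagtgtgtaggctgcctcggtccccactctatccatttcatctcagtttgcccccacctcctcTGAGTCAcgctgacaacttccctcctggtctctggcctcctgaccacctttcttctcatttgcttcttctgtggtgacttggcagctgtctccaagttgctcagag
Cd68: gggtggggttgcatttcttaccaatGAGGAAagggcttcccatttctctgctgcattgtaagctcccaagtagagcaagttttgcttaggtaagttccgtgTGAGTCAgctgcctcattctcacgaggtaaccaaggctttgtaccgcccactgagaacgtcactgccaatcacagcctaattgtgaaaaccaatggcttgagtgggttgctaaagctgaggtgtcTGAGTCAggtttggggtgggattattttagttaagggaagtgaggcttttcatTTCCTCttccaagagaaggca
Counted in bases from the transcription start, the match begins at -9 in *Trem2*, at -6 in *Cst7* and at -56 in *Itgax*, and *Cd68* has matches that begin at -149 and -24. GAGGAA was present in 6 of the 10 promoters (those of *Trem2*, *Cd68* and *Axl*, both of *Clec7a* and the upstream one of *Spp1*) and in 28.3% of all promoters. The *Clec7a* promoters overlap and share the same match, and by gene GAGGAA was present in 5 of 8. GAGGAAGT was found only in the upstream *Spp1* promoter, against 3.2% of all promoters, and CACGTG in none of the 10, against 7.15%. The *Lgals3* promoter held no match. These are matches of letters, and binding was not measured here.

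**Figure D1:**
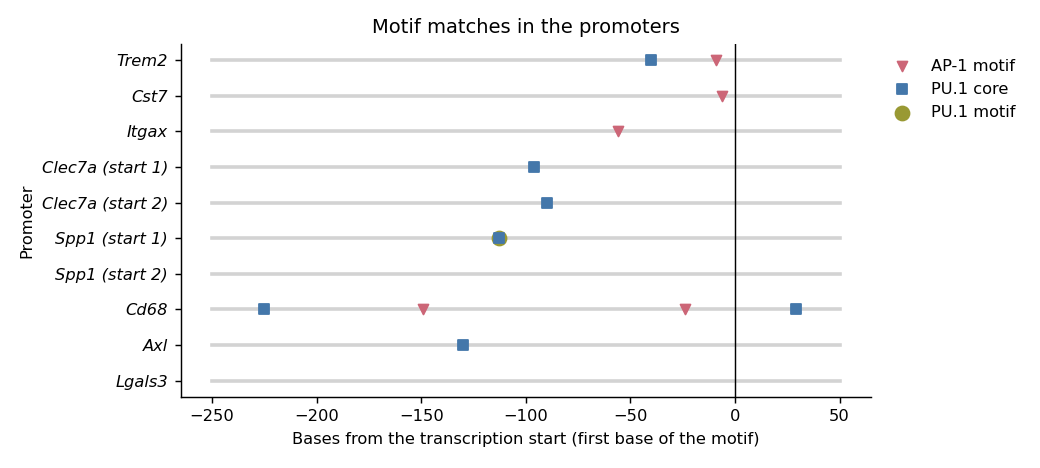
Position of motif matches in the 10 RefSeq promoters of 8 genes, as bases from the transcription start (0) to the first base of the match, with a grey line for each promoter from 250 bases before to 50 after the start. AP-1 matches (triangles) lie in *Trem2*, *Cst7*, *Itgax* and *Cd68*, and the PU.1 core (squares) in *Trem2*, *Clec7a*, *Spp1*, *Cd68* and *Axl*.

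The receptor and its adaptor were both upregulated. *Trem2* (ENSMUSG00000023992, GRCm38 chr17:48346401-48354147, plus strand) encodes the lipid-sensing receptor. Its level was 2.31, 2.01, 3.06 and 1.48 CPM in WT replicates 1 to 4 and 5.21, 6.69 and 5.27 CPM in SCA7 replicates 1 to 3, from 97 to 163 reads in a WT library and 321 to 571 in an SCA7 library. The lowest SCA7 retina was thus above the highest WT retina. The means were 2.21 ± 0.656 (SD, n = 4) and 5.72 ± 0.836 (SD, n = 3), a log2 fold change of 1.38 with a standard error of 0.20 (edgeR, adjusted p = 3.8e-04). *Tyrobp* (ENSMUSG00000030579, chr7:30413760-30417585, plus strand) encodes DAP12, which carries the signal of TREM2 into the cell. It was at 4.06, 3.42, 5.10 and 2.71 CPM in the WT libraries and at 8.54, 11.5 and 10.6 CPM in the SCA7 libraries. The groups did not overlap, and in both genes WT replicate 4 was the lowest library and SCA7 replicate 2 the highest. The mean of *Tyrobp* went from 3.82 ± 1.02 to 10.2 ± 1.52 CPM (SD, n = 4 and 3), a log2 fold change of 1.43 ± 0.18 (SE, edgeR adjusted p = 2.7e-04). In bulk tissue, a change in cell number and a change in RNA per cell cannot be told apart. Nor can microglia be told apart from other retinal cells that make the same RNA. This applies to every gene below.

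*Cst7* and *Itgax* were close to the detection limit in WT retina. *Cst7* (ENSMUSG00000068129, chr2:150570415-150578944, plus strand) encodes cystatin F, an inhibitor of lysosomal cysteine proteases. It had 5, 1, 3 and 7 reads in WT replicates 1 to 4 and 61, 134 and 128 reads in SCA7 replicates 1 to 3. These reads correspond to 0.0854, 0.0140, 0.0562 and 0.107 CPM in WT and to 0.991, 1.57 and 1.24 CPM in SCA7, without overlap. The fitted log2 fold change was 4.27 ± 0.35 (SE, edgeR adjusted p = 3.9e-06) and ranged from 3.89 to 4.64 when single libraries were left out, so its size rests on few WT reads. *Itgax* (ENSMUSG00000030789, chr7:128129547-128150657, plus strand) encodes CD11c, an integrin chain that pairs with the product of *Itgb2* into a complement receptor. It gave 6, 7, 4 and 4 reads in the WT libraries and 27, 58 and 80 in the SCA7 libraries, that is 0.0841 ± 0.0195 CPM in WT and 0.632 ± 0.174 CPM in SCA7 (SD, n = 4 and 3). Every SCA7 library lay above every WT library, and the log2 fold change was 2.90 ± 0.31 (SE, edgeR adjusted p = 3.2e-05).

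Among surface receptors, *Clec7a* and *Axl* were upregulated as well. *Clec7a* (ENSMUSG00000079293, chr6:129461591-129472779, minus strand) encodes dectin-1, a receptor for fungal beta-glucan that marks activated microglia, and the annotation types it as a polymorphic pseudogene. It was at 1.298, 1.09, 1.11 and 0.535 CPM in the WT libraries and at 2.97, 3.80 and 3.20 CPM in the SCA7 libraries. No SCA7 library came near the WT range, and the log2 fold change was 1.73 ± 0.23 (SE, edgeR adjusted p = 1.8e-04). *Axl* (ENSMUSG00000002602, chr7:25757273-25788705, minus strand) encodes a receptor of the TAM family, which binds dying cells through bridging ligands. Its level was 17.7, 17.9, 19.0 and 18.4 CPM in WT and 34.7, 32.9 and 34.1 CPM in SCA7. The spread within each genotype was small (SD 0.6001 and 0.889 CPM), and the log2 fold change of 0.89 ± 0.06 (SE, edgeR adjusted p = 6.8e-07) was the smallest of the 7 that passed. Unlike *Cst7*, *Axl* was well expressed in WT retina, with at least 1015 reads in each WT library.

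*Cd68* (ENSMUSG00000018774, chr11:69664213-69666153, minus strand) encodes a heavily glycosylated protein of macrophage lysosomes and is used to stain phagocytic microglia. The WT libraries gave 1.42, 0.978, 0.956 and 1.21 CPM and the SCA7 libraries 2.29, 3.32 and 2.88 CPM. The groups did not overlap, and the log2 fold change was 1.31 ± 0.17 (SE, edgeR adjusted p = 1.7e-04). *Cd68* has *Eif4a1* as a neighbour within 1 kb, and *Tyrobp* has *Hcst*.

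*Lpl* and *Spp1* were not called in either direction. *Lpl* (ENSMUSG00000015568, chr8:68880491-68907448, plus strand) encodes lipoprotein lipase, which frees fatty acids from lipoproteins. It was at 8.54, 9.94, 8.90 and 9.92 CPM in the WT libraries and at 9.19, 7.98 and 9.21 CPM in the SCA7 libraries. The groups overlapped, and the log2 fold change of -0.09 (SE 0.09, approximate 95% interval -0.28 to 0.11, edgeR adjusted p = 0.52) became 0.10 with total counts as library size. *Spp1* (ENSMUSG00000029304, chr5:104435118-104441050, plus strand) encodes osteopontin, a secreted ligand of integrins and CD44 that retinal ganglion cells are also known to make. Its level was 21.3, 21.5, 26.2 and 23.0 CPM in WT and 16.7, 25.4 and 27.3 CPM in SCA7, where replicate 1 was below every WT library and replicate 3 above every one. The log2 fold change was 0.01 (SE 0.16, approximate 95% interval -0.34 to 0.36, edgeR adjusted p = 0.96), and its sign changed in 6 of 15 alternative fits, the value lying between -0.12 and 0.20. *Spp1* shares 309 exonic bases with *Gm42793* on the same strand, so reads there may be assigned to either gene or to none. Of the ganglion cell marker list 0 of 9 genes were called in either direction, and its summed level was 1037 to 1264 CPM in WT and 969 to 1043 CPM in SCA7.

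*Lgals3* (ENSMUSG00000050335, chr14:47367751-47386160, plus strand), which encodes galectin-3, a lectin that binds damaged lysosomes and cell-surface sugars, lay between these outcomes. It was at 2.78, 4.07, 3.15 and 2.22 CPM in WT and at 4.16, 5.92 and 3.27 CPM in SCA7. SCA7 replicate 3 was below WT replicate 2, so the groups overlapped. The log2 fold change was 0.54 ± 0.23 (SE, edgeR adjusted p = 0.11), with an approximate 95% interval of 0.03 to 1.05. The adjusted p fell under 0.05 in 5 of 15 alternatives and ranged from 0.018 to 0.40 over all of them. Without WT replicate 2 the log2 fold change was 0.71 (adjusted p = 0.037), and without SCA7 replicate 3 it was 0.72 (adjusted p = 0.040). Without SCA7 replicate 2 it was 0.28 (adjusted p = 0.40), the lowest of the fits.

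**Figure D2:**
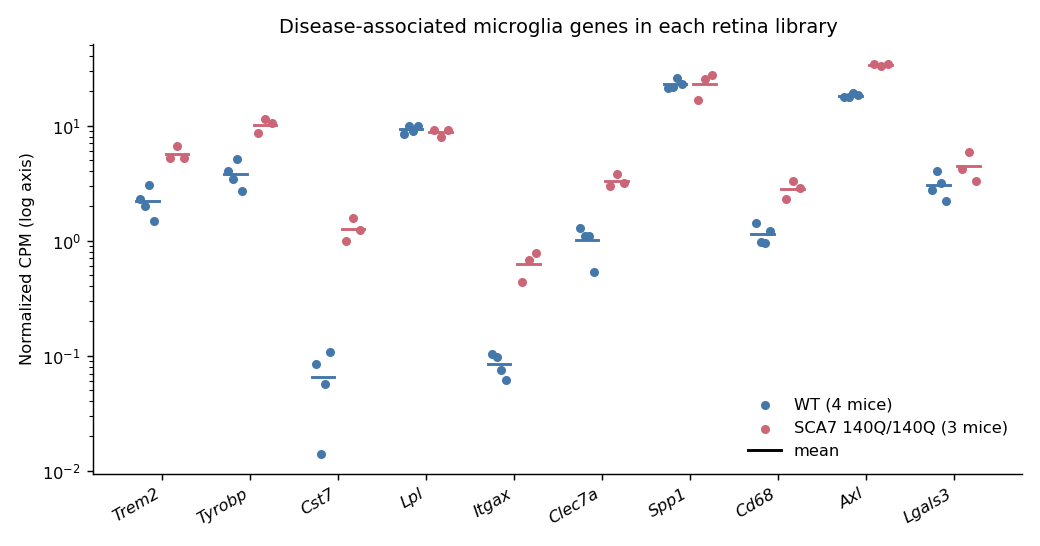
Normalized CPM (log axis) of each of the 10 genes in each library, with a point per mouse for WT (blue, n = 4) and SCA7 (red, n = 3) and a line at the mean. The groups are apart for *Trem2*, *Tyrobp*, *Cst7*, *Itgax*, *Clec7a*, *Cd68* and *Axl*, and overlap for *Lpl*, *Spp1* and *Lgals3*.

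The SCA7 mice did not rank alike. SCA7 replicate 2 was the highest of its group for 6 of the 10 genes, and SCA7 replicate 1 the lowest for 7. Replicate 1 had the smallest SCA7 library, with 56497675 counts, and the highest *Axl* level, so it was not the lowest throughout. Among the WT mice, replicate 4 was the lowest for 5 genes and replicate 3 the highest for 4. SCA7 replicate 2 also had the highest summed level of 14 pan-myeloid genes (167 CPM, against 148 and 151 in the other SCA7 libraries), and WT replicate 4 the lowest (60.6 CPM).

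Levels can be compared between genes only per length, for which RPK was used, the counts per kb of the gene's median transcript after scaling by DESeq2 size factors. In WT retina the order was *Axl* (1826 ± 57.1 RPK), *Spp1* (1126 ± 107), *Tyrobp* (459 ± 121), *Lpl* (266 ± 20.9), *Lgals3* (246 ± 63.1), *Trem2* (143 ± 42.0), *Cd68* (78.1 ± 14.8), *Clec7a* (46.7 ± 15.2), *Itgax* (6.61 ± 1.53) and *Cst7* (4.59 ± 2.82; SD, n = 4). The WT ranges of neighbours overlapped for *Lpl* and *Lgals3*, *Lgals3* and *Trem2*, *Trem2* and *Cd68*, and *Itgax* and *Cst7*. In SCA7 retina *Axl* stayed first at 3426 ± 106 RPK, and *Tyrobp* (1238 ± 181 RPK) and *Spp1* (1142 ± 279 RPK) were next with overlapping ranges. *Trem2* (372 ± 52.2 RPK) there exceeded *Lpl* (253 ± 21.7 RPK), the reverse of their WT order, and *Cst7* reached 89.5 ± 20.1 RPK (SD, n = 3). The order depends on the length used: with the union of all exons, *Spp1* came first in WT (963 ± 91.7 RPK), then *Tyrobp*, then *Axl* (250 ± 7.83 RPK), since the median *Axl* transcript is 0.69 kb and its exons together span 5.03 kb.

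Other microglial and myeloid genes were also higher in SCA7 retina. Of 10 homeostatic genes 9 were upregulated and 0 downregulated, their median log2 fold change being 0.75. *Fcrls*, an Fc receptor-like gene of microglia, rose by 2.12 ± 0.17 (log2, SE), *Siglech* by 0.87 ± 0.16, the transcription factor gene *Sall1* by 0.81 ± 0.18 and the fractalkine receptor gene *Cx3cr1* by 0.78 ± 0.10. *Gpr34*, the exception, had a log2 fold change of 0.58 (edgeR adjusted p = 0.059). Its adjusted p fell under 0.05 in 7 of 15 alternative fits (edgeR, DESeq2 or limma-voom) and ranged from 0.0027 to 0.20 over all of them. All 14 pan-myeloid genes were upregulated, at a median of 1.07 (log2), led by the complement genes *C1qc* (1.53), *C1qb* (1.44) and *C1qa* (1.44) and the protease gene *Ctss* (1.35). The summed level of the homeostatic genes was 31.2 to 37.6 CPM in WT and 55.3 to 62.2 CPM in SCA7, and that of the pan-myeloid genes was 60.6 to 70.3 CPM in WT and 148 to 167 CPM in SCA7. The ratio of the group means was 1.72 for the first list and 2.38 for the second.

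Since the homeostatic genes were higher, each of the 10 genes was also compared relative to them, by a fit over the same 20128 genes in which the summed reads of the 10 homeostatic genes stood for the library size. This asks whether a gene changed more or less than the resting microglial genes of the same retina. On this scale the median of all genes is -0.80, 1.02% of all genes were called up and 80.9% down, so a call down there is the common outcome of a gene that moved less than the reference. Of the 10 genes, 6 were called up (*Trem2*, *Tyrobp*, *Cst7*, *Itgax*, *Clec7a* and *Cd68*), 2 down (*Lpl* and *Spp1*) and 2 neither (*Axl* and *Lgals3*). Without *Cst7* and *Itgax*, 4 of 8 were called up.

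*Cst7* had 0.408 to 3.43 reads per 1000 homeostatic reads in WT and 16.9 to 25.2 in SCA7. That is a relative log2 fold change of 3.49 ± 0.36 (SE, edgeR adjusted p = 9.1e-08). *Itgax* had 1.96 to 3.02 reads per 1000 in WT and 7.46 to 14.1 in SCA7, a relative log2 fold change of 2.13 ± 0.35 (adjusted p = 1.2e-05). For *Clec7a* the ranges were 17.2 to 38.2 and 50.6 to 61.0 reads per 1000, and the relative change was 0.95 ± 0.20 (adjusted p = 2.4e-04). The genotypes did not overlap for these 3 genes, of which *Cst7* and *Itgax* carry the limit on their few WT reads here too.

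The receptor pair moved less on this scale. *Trem2* had 47.5 to 81.3 reads per 1000 homeostatic reads in WT and 88.7 to 108 in SCA7, a relative log2 fold change of 0.61 ± 0.17 (SE, edgeR adjusted p = 0.0021). *Tyrobp* had 86.8 to 136 and 145 to 191 reads per 1000, a relative change of 0.66 ± 0.15 (adjusted p = 5e-04). *Cd68* overlapped between genotypes, with 25.4 to 41.7 and 39.0 to 53.3 reads per 1000, and its relative change of 0.53 ± 0.19 (adjusted p = 0.015) lost its call without SCA7 replicate 2 and without SCA7 replicate 3. *Axl* was at 506 to 589 reads per 1000 in WT and 529 to 617 in SCA7, and its relative log2 fold change of 0.12 (approximate 95% interval -0.09 to 0.32, adjusted p = 0.27) did not pass. *Lpl* was lower in SCA7 on this scale, at 237 to 318 reads per 1000 in WT and 128 to 167 in SCA7 (relative log2 fold change -0.87 ± 0.13, adjusted p = 6.1e-06). The same held for *Spp1*, at 627 to 736 and 284 to 494 reads per 1000 (-0.76 ± 0.15, adjusted p = 1.9e-04). *Lgals3* overlapped, at 71.1 to 119 and 59.2 to 95.1 reads per 1000 (-0.25 ± 0.19, adjusted p = 0.22), but its adjusted p was 0.037 without WT replicate 4 (-0.34) and 0.050 without SCA7 replicate 2 (-0.46).

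The choice of reference decides part of this. Against the 14 pan-myeloid genes in place of the homeostatic ones, the median of all genes was -1.27, and 0.512% of all genes were called up and 94.9% down. Of the 10 genes, only *Cst7* (3.02), *Itgax* (1.66) and *Clec7a* (0.48) were still called up. The relative log2 fold change was then 0.13 for *Trem2* (edgeR adjusted p = 0.42), 0.18 for *Tyrobp* (adjusted p = 0.22) and 0.05 for *Cd68* (adjusted p = 0.77), and that of *Axl* was -0.36 (adjusted p = 0.0022). *Lgals3* was called down with this reference (-0.73, adjusted p = 6.5e-04), as *Lpl* and *Spp1* were. Leaving out *Olfml3*, which holds the most reads of the homeostatic list, or *Fcrls*, which changed most, kept 6 genes up and 2 down.

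**Figure D3:**
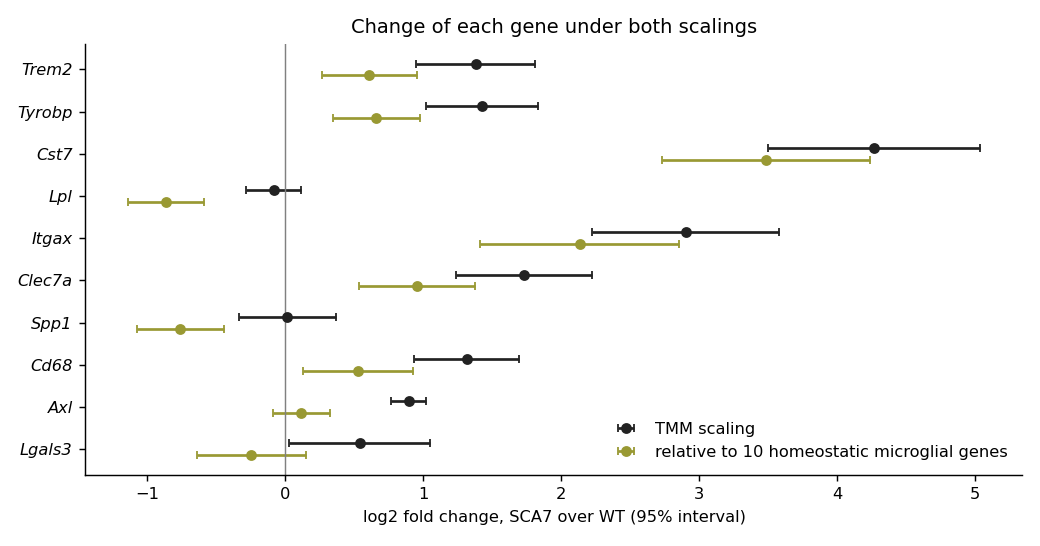
Log2 fold change (SCA7 over WT) of each of the 10 genes with its approximate 95% interval, after TMM scaling (black) and relative to the 10 homeostatic microglial genes of the same libraries (olive). *Cst7*, *Itgax* and *Clec7a* stay farthest to the right on both scales, while *Axl* goes from 0.89 to 0.12 and *Lpl* and *Spp1* move below 0 on the relative scale.

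**Figure D4:**
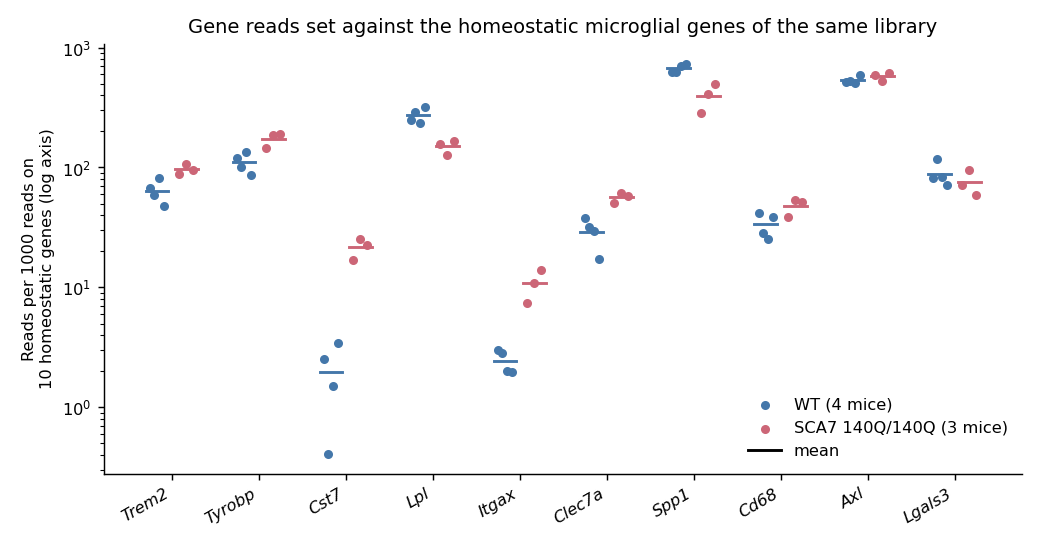
Reads of each of the 10 genes per 1000 reads on the 10 homeostatic genes of the same library (log axis), with a point per mouse for WT (blue, n = 4) and SCA7 (red, n = 3) and a line at the mean. *Cst7* is at 0.408 to 3.43 in WT and 16.9 to 25.2 in SCA7, and *Cd68*, *Axl* and *Lgals3* overlap between the genotypes.

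Of 11 genes that act with TREM2 and DAP12, as ligand, adaptor, shedding protease or signalling protein, 6 were upregulated and 0 downregulated, at a median of 0.72 (log2). The kinase gene *Syk*, which docks on DAP12, had a log2 fold change of 0.94 ± 0.20 (SE, edgeR adjusted p = 0.0039), and *Plcg2*, whose phospholipase acts downstream of it, 0.72 ± 0.13 (adjusted p = 0.0012). *Vav1*, an exchange factor, rose by 1.26 and the phosphatase gene *Ptpn6* by 0.77. *Clu*, which encodes clusterin, a ligand of TREM2 that other retinal cells make in large amounts, went from 508 ± 22.2 to 1045 ± 29.0 CPM (SD, n = 4 and 3). *Hcst*, the gene of the related adaptor DAP10, rose by 1.54 from 0.0698 ± 0.0376 CPM, but without SCA7 replicate 2 its adjusted p was 0.059. Like *Cst7* and *Itgax* it had under 10 reads in every WT library (3 to 9) and passed the filter only through the SCA7 libraries, and 5 of the other 10 genes of the list were upregulated. The remaining genes did not pass: *Inpp5d* (0.23), *Adam17* (0.12), *Adam10* (-0.10), *Lat2* (-0.15) and *Pik3ap1* (-0.23). *Adam10* and *Adam17* encode the proteases that shed TREM2 from the cell surface, and *Inpp5d* a phosphatase that opposes its signal. Relative to the homeostatic genes, only *Vav1* of this list was called up (0.48), and *Inpp5d*, *Pik3ap1*, *Lat2*, *Adam10* and *Adam17* were called down (5 of 11). Over all genes 1.02% were called up and 80.9% down on that scale.

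Of 25 further genes of the disease-associated program, 23 were tested, 11 were upregulated and 0 downregulated, at a median of 0.47 (log2). The other 12 were not called. Among these *Igf1*, named after its values were seen, was lower (-0.34 ± 0.06, SE, edgeR adjusted p = 0.0016) but within the FC limits. All 3 SCA7 libraries were below all WT libraries for it. *B2m*, the light chain of MHC class I, rose by 1.301 ± 0.08 (log2, SE), *Cd52* by 1.28 ± 0.14, the actin-capping gene *Capg* by 1.04 ± 0.22 and *Csf1*, the growth factor of microglia, by 0.76 ± 0.09. Relative to the homeostatic genes 2 of the 23 were called up, *B2m* (0.52) and *Cd52* (0.50), and 7 down, against 1.02% and 80.9% of all genes. *Apoe*, the apolipoprotein gene best known from this program, which retinal glia also express, went from 686 ± 76.8 to 920 ± 29.5 CPM (SD, n = 4 and 3), a log2 fold change of 0.42 ± 0.09 (edgeR adjusted p = 0.0034), and was named after its values were seen.

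The partners of the 10 genes were mixed. In the TAM family, the ligand gene *Pros1* rose by 0.70 ± 0.06 (log2, SE), while the receptor genes *Mertk* (0.04) and *Tyro3* (-0.29) and the ligand gene *Gas6* (-0.02) were not called, so *Axl* was the TAM receptor gene that passed. *Tyro3* had an adjusted p of 0.017 in edgeR but an FC within the limits, and all 3 SCA7 libraries were below all WT libraries. Of 16 other partner genes 14 were tested, 8 were upregulated and 0 downregulated, with a median of 0.46. *Itgb2*, the chain that pairs with CD11c, rose by 1.26 ± 0.15, *Cd44*, a receptor of osteopontin, by 1.17 ± 0.11, *Lgals3bp*, whose product binds galectin-3, by 0.97 ± 0.20 and *Ctsc*, a protease that cystatin F inhibits, by 0.72 ± 0.10. The edgeR adjusted p of *Lgals3bp* was 0.058 without WT replicate 3 and 0.15 with the replicate number as covariate.

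Of 9 genes of border macrophages and monocytes 0 were upregulated and 4 downregulated, 5 having a lower and 4 a higher fitted level in SCA7, at a median of -0.83 (log2) and a summed level of 13.6 to 14.9 CPM in WT and 7.20 to 9.75 CPM in SCA7. Most of that sum is *Lyve1* (means of 9.93 CPM in WT and 5.59 CPM in SCA7), which is also the gene at the median. *Lyve1* fell by 0.83 ± 0.13 on the log2 scale, and *Cd163* (-2.27), *Pf4* (-1.87) and *F13a1* (-1.59), named after their values were seen, have group means under 1 CPM, and the genotypes overlapped for *Pf4* and *F13a1*. With 4 to 11 reads of *Cd163* and 6 of *Pf4* in each SCA7 library, these genes passed the filter only through the WT libraries, so that they could hardly be tested without being lower in SCA7. *Lyve1* and *Cd163* were called down with any library left out. The count of 4 was 2 without WT replicate 1, without WT replicate 4, without SCA7 replicate 1 or without SCA7 replicate 3. The monocyte genes *Ccr2* (0.54, edgeR adjusted p = 0.44) and *Ly6c2* (0.11, adjusted p = 0.84) were at or below 0.158 CPM in the mean of either genotype. The rest of the list, *Mrc1* (-1.79, adjusted p = 0.071), *Ms4a7* (0.58, adjusted p = 0.27) and *Plac8* (0.21, adjusted p = 0.90), did not pass in edgeR. Of 13 genes of other leukocytes, 7 had enough reads to be tested, and *Cd8a* (0.66) was called up. The summed level of that list was 9.77 to 11.3 CPM in WT and 11.5 to 12.4 CPM in SCA7. Most of it came from *Zbtb46* (means of 6.49 CPM in WT and 7.21 CPM in SCA7) and *Flt3* (2.70 and 2.87 CPM). These genes were not called and were named after their values were seen.

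Marker genes of other cell types differed with genotype too, and their part in the results above was not tested. All 8 rod genes were downregulated, with a summed level of 65220 to 67219 CPM in WT and 16826 to 22083 CPM in SCA7, and 9 of 10 reactive glia genes were upregulated (234 to 260 CPM and 740 to 842 CPM). The summed level of 7 pigment epithelium genes, 3 of them downregulated, was 66.6 to 133 CPM in WT and 20.3 to 49.6 CPM in SCA7, but the median log2 fold change of that list was 0.08, the other 4 genes having values of 0.08 to 0.56 that did not pass. Of 5 red blood cell genes 1 was downregulated (54.5 to 76.7 CPM and 30.5 to 61.6 CPM), of 8 vessel genes 1 was upregulated (216 to 242 CPM and 251 to 269 CPM), and of 7 Müller glia genes 0 were called (4494 to 5407 CPM and 4377 to 4639 CPM).

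**Figure D5:**
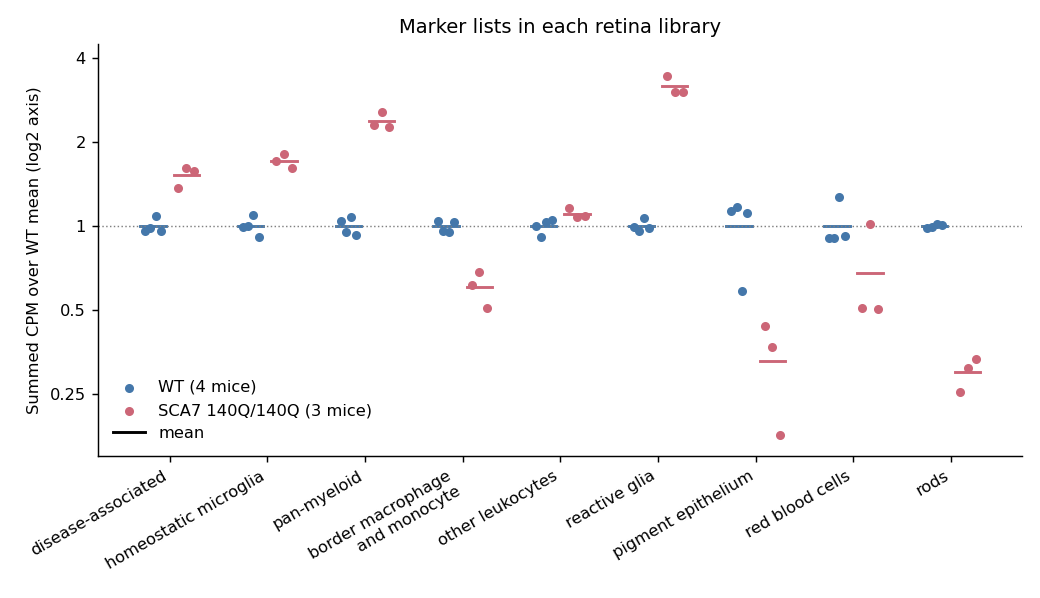
Summed CPM of each marker list in each library over the list's WT mean (log2 axis), with a point per mouse for WT (blue, n = 4) and SCA7 (red, n = 3) and a line at the mean. Of the plotted lists, the 3 microglial and myeloid ones, the other leukocytes and the reactive glia lie above the WT libraries in SCA7. The border macrophage, pigment epithelium and rod lists lie below them. *Zbtb46* and *Flt3*, not called, hold most of the other leukocyte sum, and *Lyve1* most of the border macrophage sum.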

How the data were processed

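Total RNA-seq of retina was analysed for 4 WT and 3 SCA7 mice. Per the labels, the authors depleted ribosomal RNA, made stranded libraries, mapped the reads to mm10 with TopHat2 2.0.14 and Bowtie2 2.1.0 and used HTSeq 0.6.1 to count reads on Ensembl genes. They deposited raw counts, whole numbers without normalization, and the strand option is not given in the sources used here.

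Genes were kept by filterByExpr of edgeR. TMM factors scaled the libraries, and genotypes were compared with glmQLFTest after a robust glmQLFit, with no covariate. The standard error is the log2 fold change over the root of F, and intervals use the t distribution of that fit. RPK and gene positions use an annotation of GRCm38, the assembly of mm10. Promoters are from RefSeq. Total counts per library give the precision of counting only. The p-values set the genotype difference against the spread between these mice, as edgeR models it with the help of all genes. The numbers 1 to 3 shared by both genotypes were taken only as names (see the closing section).

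All 10 members are named. Of each myeloid list, up to 4 called genes with the largest change and a mean of at least 1 CPM are named, with every gene of the signalling and TAM lists. The members and the 15 other lists were chosen with earlier results of these data known. Lists were described by counts and medians, with no set test. Alternatives were DESeq2 size factors, total counts, the DESeq2 Wald test, limma-voom, other filters (1 count in any library, 10 counts in every library), the replicate number or *Xist* (0.5 counts added) as covariate, each library left out, an adjusted p under 0.01, no FC limit, other references and the union of exons as length. References without *Olfml3* or *Fcrls*, and the border macrophage list with libraries left out, were added after seeing the data. The fits were tested on simulated counts. R 4.3.3, edgeR 4.0.16, limma 3.58.1 and DESeq2 1.42.0 were used.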

Additional observations from a re-analysis of the deposited data

Results flagged for a closer look

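Of 26 sets of 4 WT values examined (10 single genes and 16 summed lists), 2 had a library far from the other 3 by Dixon's test at its 95% critical value, where chance gives about 1 in 20. Both were in WT replicate 3, whose summed level of the pigment epithelium genes was 66.6 CPM, below the other WT libraries, and whose summed level of the red blood cell genes was 76.7 CPM, above them. None of the 10 microglia genes had such a library among the WT mice. Without WT replicate 3 the same 7 of the 10 genes were called up.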

How the results depend on the processing

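The 7 calls among the 10 genes held in all 15 alternative fits, except that *Cst7* and *Itgax* could not be tested with at least 10 counts in every library, where 5 were called. No gene was called down in any. Over all genes, total counts as library size gave 3681 up and 978 down, and no FC limit gave 2853 up and 2853 down. Without an FC limit 1 gene each was down in the further program (*Igf1*), the TAM list (*Tyro3*) and the partner list (*Malt1*). The log2 fold change changed sign for *Lpl* with total counts (0.10) and for *Spp1* with the *Xist* covariate (-0.017) and with libraries left out (-0.12 to 0.20). With single libraries left out, 1215 to 1559 genes were up and 1196 to 1731 down. Relative to pan-myeloid genes 3 genes were called up, and *Axl* was at -0.36. With the union of exons the median WT level of the 10 genes was 62.0 RPK, against 194 with the median transcript. The cause was not tested, apart from the length and the filter, which follow from how these are built. Same-numbered WT and SCA7 samples deviated together with r = 0.007, 0.31 and 0.13, which does not decide whether they are pairs. The sample titles hold a further number that is close in same-numbered samples, and its meaning is not given. The main fit took no pairs. With the replicate block 1629 genes were up and 1706 down, 8 of the 10 genes were called up with *Lgals3* (adjusted p = 0.018), *Spp1* was at -0.012 and *Lgals3bp* had an adjusted p of 0.15. With the block *Lgals3* was at -0.34 relative to the homeostatic genes (adjusted p = 0.042), within the FC limits. Of WT replicates 1 to 3, replicates 2 and 3 deviated most like the SCA7 sample of their own number and replicate 1 like SCA7 replicate 2. Depth limits *Cst7* and *Itgax* most, with 1 to 7 and 4 to 7 reads in the WT libraries.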
